A study of Mus musculus with 8 samples.

Results

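The genes described are ligands, receptors and modulators of transforming growth factor beta (TGF-beta) signaling in the retinal pigment epithelium (RPE) of *Bbs8*-/- mice. They are *Tgfb1*, *Tgfb2*, *Tgfbr1*, *Tgfbr2*, *Tgfbr3*, *Acvr1*, *Smad3*, *Smad7*, *Vasn* and *Thbs1*, chosen by name for their place in the pathway and matched by symbol to the Ensembl identifiers of the deposited tables. They make up 10 of the 31053 genes listed, and all 10 were among the 12889 genes tested.

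The study examined how loss of the ciliary gene *Bbs8* affects the RPE, the pigmented cell layer behind the photoreceptors. The 8 libraries hold RNA of RPE isolated at postnatal day 29, with *Bbs8*-/- mice and their *Bbs8*+/+ littermates giving 4 each. Both groups were on the C57/Bl6 strain and received no treatment, and the sex of the animals is given as not determined. The study describes each animal as a biological replicate. The *Bbs8*-/- mice were global mutants, with *Bbs8* lost from photoreceptors as well as from the RPE.

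The libraries were made with a protocol that reads the 3′ end of each transcript (QuantSeq), about 1 read per transcript whatever its length. Levels are given as CPM, counts relative to a library size adjusted by edgeR's TMM factors, and were compared between genes without division by length. Counts on genes numbered between 2495094 and 3093428 per *Bbs8*+/+ library (median 2763951) and between 2389835 and 2736289 per *Bbs8*-/- library (median 2568875). A floor of 3 counts was used for detection, which came to 1.02 to 1.23 CPM. This floor and the binomial intervals of shares of counts cover counting error only, and the reads carry no molecular identifiers. Intervals of fold changes come from edgeR's fit and include the spread between libraries. Differences between genotypes were tested two-sided by the quasi-likelihood test of edgeR, with Benjamini-Hochberg adjustment over all 12889 genes, and a gene passed the test at an adjusted p under 0.05. Fold changes are *Bbs8*-/- over *Bbs8*+/+, and errors are SD with n = 4 libraries per genotype.

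TGF-beta ligands are secreted in a latent form, bound to a propeptide and stored in the matrix, and have to be released before they can bind. The released ligand joins a type II and a type I receptor kinase, which phosphorylate the receptor Smads that carry the signal to the nucleus. In the RPE the pathway is known for its part in the transition of epithelial cells toward a mesenchymal state, and thrombospondin, integrins and soluble decoys set how much active ligand reaches the receptors.

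*Bbs8* is annotated as *Ttc8* on chromosome 12, and its counts checked the labels. They were 105, 142, 144 and 116 in the *Bbs8*+/+ libraries against 15, 5, 14 and 15 in the *Bbs8*-/- libraries. No overlap was seen, and *Ttc8* changed by −3.34 on the log2 scale (95% interval −3.94 to −2.74). Library 1 of *Bbs8*+/+ stood apart from the others of its genotype: its counts differed from theirs by a chi-square of 5.71 to 6.97 per degree of freedom, against 2.79 to 3.28 among the other 3. Among the *Bbs8*-/- libraries this value lay between 4.10 and 4.92.

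The libraries also differed in ways that moved with the genotype. Reads that fell on no gene made up 17.0% to 18.45% of all reads in *Bbs8*+/+ libraries and 19.8% to 20.6% in *Bbs8*-/- libraries, with no overlap. Reads of *Xist*, made from the inactive X chromosome of females, and of the Y-linked genes *Ddx3y*, *Eif2s3y*, *Kdm5d* and *Uty* were counted in all 8 libraries. *Xist* was at 60.1 ± 13.2 CPM in *Bbs8*+/+ and 206.5 ± 5.415 CPM in *Bbs8*-/- RPE, and the groups did not overlap. *Eif2s3y* was lower without overlap, at 13.0 ± 1.94 and 6.59 ± 2.76 CPM, but did not pass (adjusted p = 0.0936 by edgeR's quasi-likelihood test), and the other 3 Y-linked genes overlapped between the genotypes. Every library thus held reads typical of both sexes, although the study describes each animal as a replicate. Whether and how animals were pooled is not given in the sources used here, so that the 4 libraries per genotype may not stand for 4 animals. The p-values may measure only the spread between these libraries. The part of sex and of reads outside genes in the results was not tested.

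Of the 10 genes, 4 were higher in *Bbs8*-/- RPE by edgeR's quasi-likelihood test, *Tgfb2*, *Acvr1*, *Vasn* and *Thbs1*, and none was lower. Over all tested genes 704 (5.46%) were higher and 877 (6.8%) were lower. The *Bbs8*-/- libraries all lay above the *Bbs8*+/+ libraries for 3 of the 10, *Tgfb2*, *Vasn* and *Thbs1*, as they did for 7.42% of all tested genes, and for none of the 10 did they all lie below, against 8.62% of all tested genes. At an unadjusted p under 0.05, 5 were higher and 0 lower, beside 11.3% and 12.1% of all tested genes, and DESeq2 called the same 4 higher and 0 lower, beside 5.83% and 6.99%. The log2 fold change was above 0 for 9 of the 10, with a median of 0.68, against a median of 0.02 and 51.8% above 0 over all tested genes. When TMM was replaced by plain library size, 1005 genes were higher and 657 lower, the median shift of all log2 fold changes was 0.09, and the same 4 of the 10 passed.

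**Figure D1:**
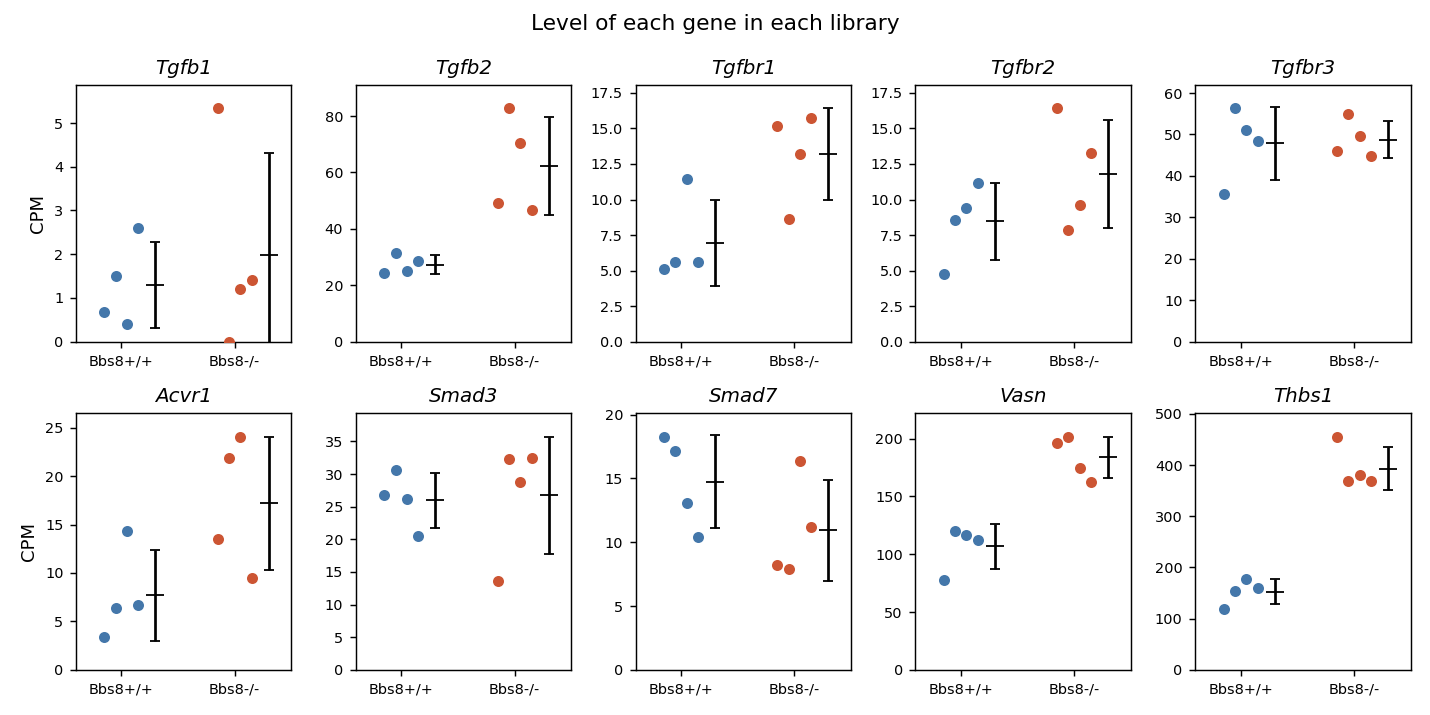
Level of each of the 10 genes in CPM (vertical axes, each from 0 on its own scale) in the 4 *Bbs8*+/+ libraries (blue) and the 4 *Bbs8*-/- libraries (orange), with the mean and SD of each genotype in black. The genotypes do not overlap for *Tgfb2*, *Vasn* and *Thbs1* and overlap for the other 7.

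Among the ligands, *Tgfb2* encodes TGF-beta 2, an isoform abundant in the eye. The gene spans bases 186622792 to 186705989 of chromosome 1 (GRCm38, reverse strand) and has 2 coding transcripts in the annotation. Its level was 24.4, 31.3, 24.9 and 28.6 CPM in the *Bbs8*+/+ libraries and 49.3, 82.8, 70.4 and 46.8 CPM in the *Bbs8*-/- libraries. The *Bbs8*-/- libraries spread more widely than the *Bbs8*+/+ libraries, and the lowest of them still lay above every *Bbs8*+/+ library. The mean was 27.3 ± 3.27 CPM in *Bbs8*+/+ and 62.3 ± 17.3 CPM in *Bbs8*-/- RPE, a 2.28-fold rise (95% interval 1.73 to 3.01, adjusted p = 2.22e-05 by edgeR's quasi-likelihood test). With each library left out in turn its log2 fold change lay between 1.02 and 1.31.

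*Tgfb1*, which encodes the founding ligand of the family, was near the floor, with 2, 4, 1 and 7 counts in the *Bbs8*+/+ libraries and 13, 0, 3 and 4 counts in the *Bbs8*-/- libraries. The groups overlapped, and library 1 of *Bbs8*-/- alone held more than any other library. The 95% interval of the fold change reached from 0.3555 to 6.24, so that neither a change nor its absence was shown. The log2 fold change of 0.58 turned to −0.56 without library 1 of *Bbs8*-/- and was 0.99 without library 2 of that genotype. It was 0.36, 0.29 and 1.14 without library 1, 3 and 4 of *Bbs8*+/+. *Tgfb3*, the ligand outside the 10 genes, was at 22.0 ± 8.33 and 26.1 ± 11.5 CPM with overlapping groups.

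Taken as a share of the counts of all 3 ligand isoforms, *Tgfb2* made up 63.2%, 63.6%, 44.5% and 48.7% in the *Bbs8*+/+ libraries, against 69.4%, 78.0%, 61.5% and 66.7% in the *Bbs8*-/- libraries. This measure was chosen after the values had been seen and was not tested, and its groups overlapped. The exact 95% binomial intervals ranged from 36.0% to 53.25% in the lowest library and from 72.9% to 82.6% in the highest. The summed level of the 3 isoforms was 50.6 ± 8.97 CPM in *Bbs8*+/+ and 90.4 ± 23.1 CPM in *Bbs8*-/- RPE.

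Among the receptors, *Acvr1* encodes the type I receptor ALK2, which carries bone morphogenetic protein (BMP) signals, and lies on chromosome 2 from 58388644 to 58567157. Its level was 3.385, 6.34, 14.3 and 6.69 CPM in the *Bbs8*+/+ libraries and 13.55, 21.9, 24.0 and 9.435 CPM in the *Bbs8*-/- libraries. The groups overlapped, because library 3 of *Bbs8*+/+ lay above 2 of the *Bbs8*-/- libraries. The mean rose from 7.68 ± 4.66 to 17.2 ± 6.87 CPM, a 2.26-fold rise (95% interval 1.32 to 3.86, adjusted p = 0.0363 by edgeR's quasi-likelihood test). Its log2 value of 1.17 was 0.92, 1.0994 and 1.12 without library 1, 2 and 4 of *Bbs8*+/+ and 1.04 and 0.97 without library 2 and 3 of *Bbs8*-/-. In these 5 cases the call was lost, with an adjusted p by edgeR's quasi-likelihood test of 0.104, 0.0996, 0.103, 0.126 and 0.157, and a loss through fewer libraries cannot be told apart from the weight of the library left out. Over all alternatives for *Acvr1* the adjusted p ranged from 0.00568 to 0.157.

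*Tgfbr1* encodes the type I receptor ALK5, the kinase that phosphorylates Smad2 and Smad3. Its level was 5.08, 5.595, 11.45 and 5.575 CPM in the *Bbs8*+/+ libraries and 15.2, 8.60, 13.2 and 15.7 CPM in the *Bbs8*-/- libraries. Library 3 of *Bbs8*+/+ lay far above the other 3 of its genotype and within the range of the *Bbs8*-/- libraries. The fold change of 1.91 (log2 0.93, 95% interval 0.17 to 1.70) did not pass the test after adjustment (adjusted p = 0.112 by edgeR's quasi-likelihood test). Without library 3 of *Bbs8*+/+ the log2 fold change was 1.27 and edgeR's adjusted p was 0.0444, the lowest of a range up to 0.245 over the alternatives.

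*Tgfbr2*, the type II receptor that binds the ligand first, was at 4.74 to 11.15 CPM in *Bbs8*+/+ and 7.88 to 16.4 CPM in *Bbs8*-/- libraries. These ranges overlapped, and the 95% interval of the fold change, 0.824 to 2.36, held values on both sides of 1. The log2 fold change of 0.48 was 0.28 without library 1 of *Bbs8*+/+ and 0.28 without library 1 of *Bbs8*-/-, and the test did not show that the receptor was unchanged.

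*Tgfbr3* encodes betaglycan, the co-receptor that presents TGF-beta 2 to the type II receptor. It was at 47.8 ± 8.83 and 48.8 ± 4.53 CPM, with overlapping groups, and its interval of 0.798 to 1.31 was the narrowest of the 6 genes that did not pass. Its log2 fold change of 0.03 turned to −0.09 without library 1 of *Bbs8*+/+ and to −0.03 without library 2 of *Bbs8*-/-, and it was at most 0.12, without library 2 of *Bbs8*+/+.

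*Vasn* encodes vasorin, a membrane protein whose shed ectodomain binds TGF-beta and keeps it from its receptors. It lies on chromosome 16 from 4639941 to 4650802 on the forward strand. Its level was 77.5, 120.1, 117 and 112 CPM in the *Bbs8*+/+ libraries and 195.8, 201.4, 175 and 163 CPM in the *Bbs8*-/- libraries. Between genotypes there was no overlap, and library 1 of *Bbs8*+/+ was the lowest of its genotype. The mean rose from 107 ± 19.7 to 184 ± 18.0 CPM, a 1.72-fold rise (95% interval 1.45 to 2.05, adjusted p = 1.02e-05 by edgeR's quasi-likelihood test), and without library 1 of *Bbs8*+/+ the log2 fold change was 0.66 in place of 0.79.

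The annotation places *Vasn* within *Coro7*, on the opposite strand, and the sources used here do not state the strand setting of the counting. *Vasn* shared no exonic base with *Coro7*, which had 34 to 61 counts per library. It shared 160 exonic bases with *Dnaja3* on the same strand, none of them in the last exon where these libraries read, and *Dnaja3* had 23 to 71 counts per library. The other genes of the deposited tables that overlap one of the 10, *Gm29491* at *Tgfb2*, *Gm17409* at *Acvr1* and *Gm29233* at *Thbs1*, had 0 counts in every library. Reads that could not be assigned between overlapping genes made up 0.244% to 0.296% of all reads.

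Of the Smads, *Smad3* encodes the receptor Smad that TGF-beta receptors phosphorylate, and *Smad7* encodes the inhibitory Smad that blocks them. *Smad3* was at 26.7, 30.6, 26.2 and 20.4 CPM in the *Bbs8*+/+ libraries and 13.55, 32.25, 28.8 and 32.5 CPM in the *Bbs8*-/- libraries. Library 1 of *Bbs8*-/- was the lowest of all 8, and the groups overlapped. The fold change of 1.03 had an interval of 0.730 to 1.47. The log2 fold change of 0.05 turned to −0.05 without library 4 of *Bbs8*+/+, to −0.05 without library 2 of *Bbs8*-/- and to −0.06 without library 4 of *Bbs8*-/-. It was 0.27 without library 1 and 0.02 without library 3 of *Bbs8*-/-, and 0.14 without library 2 of *Bbs8*+/+.

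*Smad7*, itself a target gene of TGF-beta, was at 18.3, 17.2, 13.1 and 10.4 CPM in the *Bbs8*+/+ libraries and 8.21, 7.88, 16.4 and 11.2 CPM in the *Bbs8*-/- libraries. It was the only gene of the 10 with a log2 fold change below 0, −0.44, and the groups overlapped. Its interval reached from a fold change of 0.464 to 1.18 (adjusted p = 0.478 by edgeR's quasi-likelihood test), so that neither a fall nor a level near that of *Bbs8*+/+ could be told from these libraries. Without library 3 of *Bbs8*-/- the log2 fold change was −0.69, in a range of −0.69 to −0.30 over the libraries left out in turn.

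*Thbs1* encodes thrombospondin 1, a matrix glycoprotein that can release TGF-beta from its latent complex. It lies on chromosome 2 from 118111876 to 118127133 on the forward strand. Its level was 118.5, 155, 177 and 160.5 CPM in the *Bbs8*+/+ libraries and 456, 369, 379.6 and 368 CPM in the *Bbs8*-/- libraries. The groups did not overlap, and library 1 was the lowest of *Bbs8*+/+ and the highest of *Bbs8*-/-, far from the other 3 of the latter. The mean rose from 153 ± 24.8 to 393 ± 42.1 CPM, a 2.575-fold rise (95% interval 2.215 to 2.99, adjusted p = 1.21e-12 by edgeR's quasi-likelihood test). Without library 1 of *Bbs8*+/+ the log2 fold change was 1.26, and over all libraries left out in turn it reached up to 1.44, against 1.36 with all of them.

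**Figure D2:**
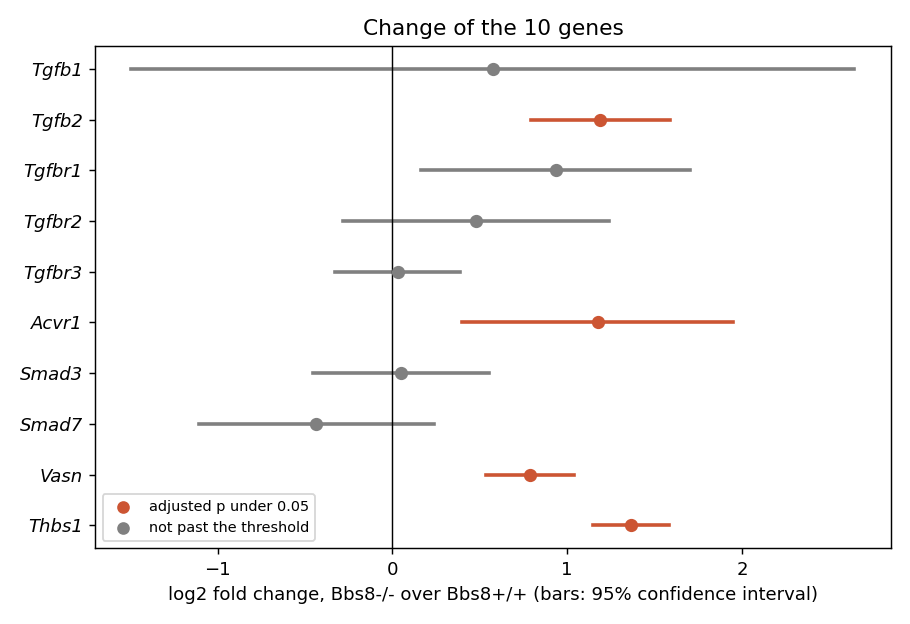
Log2 fold change of *Bbs8*-/- over *Bbs8*+/+ (horizontal axis) of the 10 genes, with bars for the 95% confidence interval and orange for an adjusted p under 0.05. The intervals of *Tgfb2*, *Acvr1*, *Vasn* and *Thbs1* lie above 0, as does that of *Tgfbr1*, which did not pass after adjustment, and *Tgfb1* has the widest interval.

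In the order of their levels in *Bbs8*+/+ RPE, *Thbs1* and *Vasn* came first and overlapped each other in range. *Tgfbr3* followed apart from both its neighbours. *Tgfb2* and *Smad3* overlapped each other, as did the successive neighbours *Smad7*, *Tgfbr2*, *Acvr1* and *Tgfbr1*, and *Tgfb1* was lowest, apart from the rest. In *Bbs8*-/- RPE *Thbs1* stood apart from *Vasn*, and *Vasn* from *Tgfb2*, which overlapped *Tgfbr3* and came before it. Apart from these, *Smad3*, *Acvr1*, *Tgfbr1*, *Tgfbr2* and *Smad7* followed, each overlapping the next, and *Tgfb1* was again lowest.

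**Figure D3:**
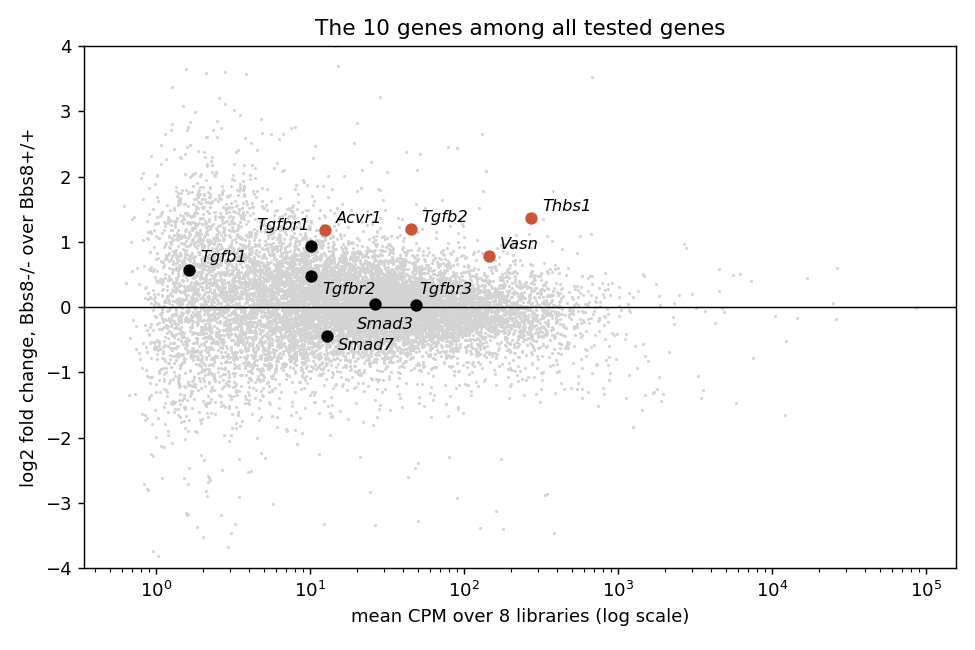
Mean level over the 8 libraries in CPM (horizontal axis, log scale) against the log2 fold change of *Bbs8*-/- over *Bbs8*+/+ (vertical axis) of the 12889 tested genes in grey, with the 10 genes drawn larger, in orange at an adjusted p under 0.05. *Thbs1* at 273 CPM and *Vasn* at 145 CPM lie highest in level, and 28 genes with a log2 fold change beyond 4 in either direction are not drawn.

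Among the 10 genes, *Thbs1* was both the called gene with the largest change and the one with the highest level. The genes whose pattern over the 8 libraries was most like that of *Thbs1* were *Cd9*, *Polr3k* and *Igfbp7*. Their root mean square difference from *Thbs1* in centred log2(CPM + 1) was 0.0753, 0.135 and 0.151. *Cd9*, which encodes a tetraspanin of the cell surface, was at 18.3, 20.9, 26.2 and 23.4 CPM in the *Bbs8*+/+ libraries and at 60.35, 54.5, 54.8 and 55.2 CPM in the *Bbs8*-/- libraries. As with *Thbs1*, library 1 was the lowest of *Bbs8*+/+ and the highest of *Bbs8*-/-, a likeness for which *Cd9* was picked. For *Polr3k* library 4 was the highest of *Bbs8*-/-, at 87.7 CPM against 85.4 CPM in library 1. *Igfbp7*, a secreted protein that binds insulin-like growth factors, was at 183 ± 47.0 and 463 ± 24.6 CPM.

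The sequences before the start sites of the genes that were higher are shown as letters only. Of the 10 genes, 7 had promoter windows of 300 bases, 250 before to 50 after a start site, in the RefSeq table for GRCm38.p6, and *Tgfbr3*, *Smad7* and *Thbs1* had none. The window of *Tgfb2* is chr1:186705940-186706239 on the reverse strand, that of *Acvr1* is chr2:58566779-58567078 on the reverse strand and that of *Vasn* is chr16:4639695-4639994 on the forward strand. Capitals mark the Smad element CAGAC, the E-box CACGTG, the TATA box TATAAA and the GC box GGGCGG, each on either strand. The AP-1 element TGANTCA was searched too and was in none of the 3.
Tgfb2: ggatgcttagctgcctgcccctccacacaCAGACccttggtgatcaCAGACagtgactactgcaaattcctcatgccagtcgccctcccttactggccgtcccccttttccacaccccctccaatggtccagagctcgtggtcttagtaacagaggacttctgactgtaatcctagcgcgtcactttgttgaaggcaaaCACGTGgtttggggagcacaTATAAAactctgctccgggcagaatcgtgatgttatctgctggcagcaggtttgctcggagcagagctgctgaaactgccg
Acvr1: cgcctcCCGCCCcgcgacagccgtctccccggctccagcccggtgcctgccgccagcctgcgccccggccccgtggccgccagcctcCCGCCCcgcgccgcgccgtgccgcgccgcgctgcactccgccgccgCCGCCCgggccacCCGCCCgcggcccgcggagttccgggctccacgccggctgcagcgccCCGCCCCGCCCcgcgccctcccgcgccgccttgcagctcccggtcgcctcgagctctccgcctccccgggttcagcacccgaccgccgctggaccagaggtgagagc
Vasn: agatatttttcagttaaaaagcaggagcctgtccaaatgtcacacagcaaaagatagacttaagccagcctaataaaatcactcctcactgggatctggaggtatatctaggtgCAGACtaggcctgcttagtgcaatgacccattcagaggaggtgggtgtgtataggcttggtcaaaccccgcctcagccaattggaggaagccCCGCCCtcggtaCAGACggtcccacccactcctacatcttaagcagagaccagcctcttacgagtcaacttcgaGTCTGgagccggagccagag

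The *Tgfb2* window held 2 Smad elements, starting 221 and 204 bases before the start site, an E-box 51 bases and a TATA box 31 bases before it. The *Vasn* window held 3 Smad elements, 1 of them after the start site, and 1 GC box. The *Acvr1* window, with 83.7% G and C, held 6 GC boxes, 2 of which share a base, and no Smad element. Of all 32851 windows of this length in the table, 49.6% held a Smad element, 7.15% an E-box, 13.6% a TATA box, 35.7% a GC box and 7.81% an AP-1 element. A match describes the letters only, and nothing was measured on the binding of any factor there.

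The wider pathway was read from 10 lists, which hold 109 genes outside the 10, and 89 of these were tested. By edgeR's quasi-likelihood test 10 were higher (11.2%) and 5 lower (5.62%), beside 5.46% and 6.8% of all tested genes, and their median log2 fold change was 0.20. The groups did not overlap for 13 that lay higher and 7 that lay lower, beside 7.42% and 8.62% of all tested genes. The lists include the 10 genes where these belong to them.

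Of the 18 ligands of the superfamily 13 were tested, and *Gdf11* was higher and *Bmp4* lower besides *Tgfb2*. *Gdf11*, which encodes a ligand that signals through activin receptors, was at 92.5 ± 7.23 and 119 ± 7.65 CPM. *Bmp4*, the most abundant ligand of the list, was at 469, 443, 459 and 543 CPM in the *Bbs8*+/+ libraries and 368, 356, 417 and 425 CPM in the *Bbs8*-/- libraries, with no overlap. The adjusted p of *Gdf11* was close to the threshold, and the calls of *Gdf11* and *Bmp4* were both lost under some of the alternatives. The log2 fold change of *Gdf11*, 0.36, lay between 0.33 and 0.45 over the alternatives, and its adjusted p by edgeR's quasi-likelihood test rose from 0.0455 to between 0.0719 and 0.127 without library 2, 3 or 4 of either genotype, to 0.0715 with a replicate block and to 0.0634 without a filter on low counts, in a range of 0.00897 to 0.127 over the alternatives. The adjusted p of *Bmp4* rose from 0.0219 to 0.151 without library 4 of *Bbs8*+/+, to 0.0733 without library 1 and 0.105 without library 2 of *Bbs8*-/-, and to 0.141 with scaling by library size alone.

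Of the 12 type I and type II receptors 9 were tested, and *Acvr1* alone passed. The most abundant was *Bmpr2*, the type II receptor for BMPs, at 79.4 ± 3.09 and 100.5 ± 3.07 CPM, with no overlap (adjusted p = 0.0776 by edgeR's quasi-likelihood test), and it passed by DESeq2 and with scaling by library size alone. The 7 co-receptors and decoy receptors were all tested, and *Rgma*, a BMP co-receptor anchored in the membrane, was higher besides *Vasn*. *Rgma* was at 17.6, 20.5, 18.8 and 19.7 CPM in the *Bbs8*+/+ libraries and 62.0, 30.1, 46.0 and 26.2 CPM in the *Bbs8*-/- libraries. The groups did not overlap, and the *Bbs8*-/- libraries spread widely (adjusted p = 0.00136 by edgeR's quasi-likelihood test).

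None of the 7 tested Smads of 8 passed, with 0 at an unadjusted p under 0.05 and 0 by DESeq2. Their summed level was 178 ± 11.7 and 180.3 ± 14.6 CPM, and *Smad5*, a BMP receptor Smad, was the most abundant. Of the 13 Smad regulators, all tested, *Nedd4l* was higher and *Ppm1a* lower. *Nedd4l*, a ubiquitin ligase that acts on activated Smads, rose from 82.15 ± 7.31 to 128 ± 23.6 CPM, 1.56-fold (adjusted p = 0.000573 by edgeR's quasi-likelihood test). *Ppm1a*, a phosphatase of Smad2 and Smad3, was at 243 ± 15.6 and 199 ± 7.55 CPM, and its adjusted p of 0.0401 rose to between 0.0560 and 0.130 without library 2 or 4 of *Bbs8*+/+ or any single library of *Bbs8*-/-, to 0.0607 with the likelihood ratio test, to 0.066 with a replicate block and to 0.183 with scaling by library size alone, with 0.0175 the lowest of the alternatives.

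The list of the latent complex and its activation holds 22 genes, all tested, of which *Itgb8* was higher besides *Thbs1* and *Bgn* was lower. *Itgb8* encodes the beta subunit of an integrin that frees TGF-beta from its latent complex and was the most abundant gene of the list. Its level was 724, 767, 813.5 and 699 CPM in the *Bbs8*+/+ libraries and 995, 953.5, 932.5 and 969 CPM in the *Bbs8*-/- libraries. Without overlap, the rise was 1.28-fold (adjusted p = 0.000334 by edgeR's quasi-likelihood test). *Itgav*, the alpha subunit it pairs with, was lower without overlap, at 195 ± 13.0 and 169.6 ± 5.54 CPM. It did not pass (adjusted p = 0.213 by edgeR's quasi-likelihood test) and was named after its values were seen. *Bgn*, a small proteoglycan that binds TGF-beta, fell from 99.4 ± 4.945 to 69.7 ± 13.95 CPM, and its adjusted p of 0.0128 was 0.0644 without library 1 of *Bbs8*-/-.

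Of the 11 antagonists of BMPs and activins 7 were tested. *Twsg1*, which binds BMPs together with chordin, rose from 24.3 ± 5.15 to 51.95 ± 6.29 CPM (2.14-fold, adjusted p = 0.000109 by edgeR's quasi-likelihood test). *Sostdc1*, a secreted antagonist of BMPs and Wnts, was at 314, 306, 291.5 and 339 CPM in the *Bbs8*+/+ libraries and 214, 222, 246 and 233 CPM in the *Bbs8*-/- libraries. *Fstl1*, a secreted follistatin-like protein that binds BMP4, was at 129.7, 131, 149.6 and 124.5 CPM against 63.2, 103, 93.6 and 94.7 CPM. Both were lower without overlap between the genotypes, with adjusted p-values of 0.000498 and 0.00179 by edgeR's quasi-likelihood test.

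Of the 20 target genes of TGF-beta 17 were tested and 3 were higher, *Ccn2*, *Junb* and *Bhlhe40*, with a median log2 fold change of 0.30 over the list. *Ccn2*, listed under its older name *Ctgf*, encodes a matrix protein. Its level was 51.1, 146, 234 and 174 CPM in the *Bbs8*+/+ libraries and 261, 249, 278 and 263.5 CPM in the *Bbs8*-/- libraries. Library 1 of *Bbs8*+/+ was far below the others, and all *Bbs8*-/- libraries lay above all of *Bbs8*+/+. The log2 fold change of 0.80 (adjusted p = 0.00372 by edgeR's quasi-likelihood test) was 0.51 without library 1 of *Bbs8*+/+ (adjusted p = 0.000159), and DESeq2 gave an adjusted p of 0.216, the highest of the alternatives. *Bhlhe40*, a transcription factor, rose from 61.9 ± 8.85 to 95.1 ± 13.2 CPM, and *Junb*, a subunit of AP-1, from 152 ± 12.3 to 192.5 ± 19.2 CPM.

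The adjusted p of *Junb* by edgeR's quasi-likelihood test, 0.0299, rose to between 0.0598 and 0.0900 without library 1 or 3 of *Bbs8*+/+ or library 2, 3 or 4 of *Bbs8*-/-. Other targets that are often read as signs of the pathway were named after their values were seen. *Fn1*, fibronectin, was at 10.8 ± 5.32 and 14.45 ± 3.66 CPM and *Acta2*, smooth muscle actin, at 62.75 ± 10.7 and 59.0 ± 7.32 CPM, each with overlapping groups. *Snai1* and *Snai2*, transcription factors of epithelial to mesenchymal transition, did not reach the level needed for a test, with means of at most 1.35 CPM, close to the floor. For *Fn1* and *Acta2* a difference between the genotypes was not shown, and their intervals do not show its absence.

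Of the 9 target genes of BMPs 6 were tested and *Id2* alone passed, an inhibitor of basic helix-loop-helix transcription factors. Its level was 147, 124, 142 and 147 CPM in the *Bbs8*+/+ libraries and 262, 279, 245 and 279 CPM in the *Bbs8*-/- libraries. The groups did not overlap, and the rise was 1.90-fold (adjusted p = 4.21e-09 by edgeR's quasi-likelihood test). *Id1* and *Id3*, named after their values were seen, were at 15.4 ± 2.98 and 13.2 ± 1.42 CPM and at 52.8 ± 13.4 and 62.25 ± 9.75 CPM, with overlapping groups. Whether *Id2* differed from *Id1* and *Id3* in its change was not tested.

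Of the 7 thrombospondins and their receptors 5 were tested, and *Thbs4* was higher besides *Thbs1*. *Thbs4*, a thrombospondin of another subgroup that lacks the repeats by which thrombospondin 1 binds latent TGF-beta, was at 111, 159, 199 and 158 CPM in the *Bbs8*+/+ libraries and 256, 225, 224 and 203 CPM in the *Bbs8*-/- libraries. Again without overlap, the rise was 1.45-fold (adjusted p = 0.00174 by edgeR's quasi-likelihood test), and its log2 value of 0.54 was 0.40 without library 1 of *Bbs8*+/+. The counts of *Thbs1* were 1.07, 0.974, 0.893 and 1.01 times those of *Thbs4* in the *Bbs8*+/+ libraries and 1.78, 1.64, 1.69 and 1.81 times in the *Bbs8*-/- libraries. This ratio, chosen after the values had been seen and not tested, did not overlap between the genotypes. *Cd47*, a receptor of thrombospondin 1, was at 63.5 ± 8.73 and 85.4 ± 11.9 CPM (adjusted p = 0.0547 by edgeR's quasi-likelihood test), also named after its values were seen. It passed without library 1 of *Bbs8*+/+, without library 3 of *Bbs8*-/-, by DESeq2, with filterByExpr and with scaling by library size alone.

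The summed level of a list did not overlap between the genotypes and lay higher in *Bbs8*-/- RPE for the receptors (231 ± 17.95 and 262 ± 10.7 CPM), the co-receptors and decoys (198 ± 31.35 and 300.5 ± 31.8 CPM) and the latent complex (2175.5 ± 73.2 and 2608 ± 47.8 CPM). It did so too for the targets of TGF-beta (694.5 ± 94.4 and 915 ± 34.9 CPM), the targets of BMPs (229 ± 10.6 and 363 ± 20.7 CPM) and the thrombospondins (383 ± 58.0 and 717 ± 65.5 CPM). It lay lower for the antagonists (566 ± 25.0 and 484 ± 21.75 CPM). It overlapped for the ligands (828 ± 62.45 and 835 ± 34.9 CPM), the Smads and the Smad regulators (784 ± 17.7 and 803 ± 68.7 CPM).

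In sums without the genes that passed, chosen after seeing the data, the genotypes overlapped for all lists but the targets of TGF-beta (329 ± 9.08 and 364.5 ± 7.07 CPM). Leaving genes out by their own test result favours overlap in the rest, so these sums do not show that the other genes were unchanged. Without *Itgb8*, *Thbs1* and *Bgn* the latent complex was at 1172 ± 17.9 and 1183 ± 31.3 CPM, without *Vasn* and *Rgma* the co-receptors and decoys at 72.4 ± 10.99 and 75.7 ± 6.76 CPM, and without *Id2* the targets of BMPs at 89.4 ± 15.8 and 96.7 ± 13.1 CPM. The antagonists turned from a log2 change of −0.23 to 0.25 without *Sostdc1*, *Fstl1* and *Twsg1*, and to 0.005 without *Sostdc1*, their most abundant gene. In sums without the most abundant gene of each list, also chosen after seeing the data, the ligands without *Bmp4* were higher with no overlap (349.7 ± 19.3 and 443 ± 22.4 CPM), as were the latent complex, the targets of TGF-beta and the thrombospondins, and the other 6 lists overlapped. These sums were not tested, and *Smad7*, *Skil*, *Pmepa1*, *Ltbp2* and *Thbs1* are among the genes that stand in more than 1 list.

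**Figure D4:**
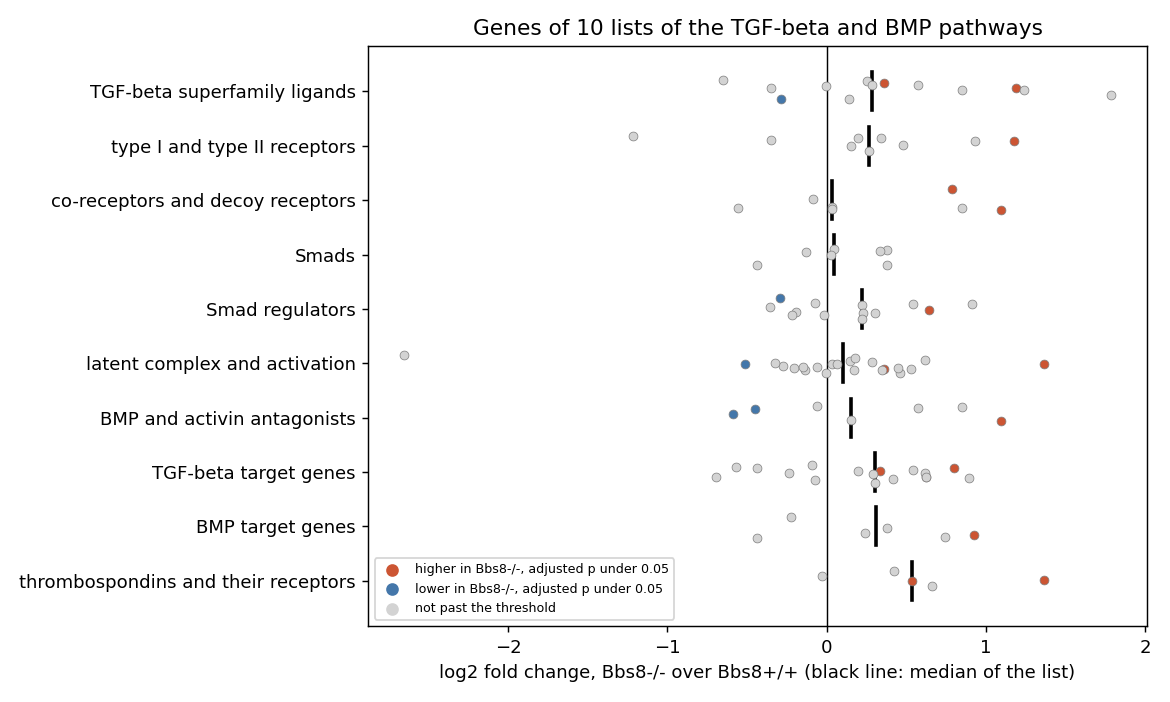
Log2 fold change of *Bbs8*-/- over *Bbs8*+/+ (horizontal axis) of each tested gene in 10 lists of the TGF-beta and BMP pathways, with orange for higher and blue for lower at an adjusted p under 0.05 and a black line for the median of the list. The medians lie between 0.03 and 0.54, and genes that did not pass lie on both sides of 0 in every list.

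During isolation the study took away muscle, fat, cornea, lens and retina and separated the RPE sheets from the choroid. Cells other than RPE still contributed RNA to the libraries, and markers of 11 cell types were read in lists. In bulk RNA fewer cells of a type and less RNA per cell cannot be told apart. The 12 RPE markers were all tested, with 2 higher and 3 lower, and *Rpe65*, which defines the tissue, was at 4639.7 ± 211 and 3915.5 ± 38.1 CPM. *Best1*, another defining marker, had at most 5 counts in any library. The summed RPE markers were at 40906, 39939, 40964 and 40988 CPM in the *Bbs8*+/+ libraries and 52144, 48311, 51073 and 49717 CPM in the *Bbs8*-/- libraries, and *Ttr*, at a mean of 26339.8 CPM over all libraries, made up most of them. No marker of this list was at 0 in every library, and these groups did not overlap. The rise came from *Ttr*: in a sum without it, chosen after seeing the data, the other RPE markers were at 19459.7, 19766, 19959 and 19884 CPM in *Bbs8*+/+ and 18922, 18366, 18729 and 18237 CPM in *Bbs8*-/- libraries, lower without overlap.

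The 24 photoreceptor markers were all tested, with 5 higher and 16 lower and none at 0 in every library. They summed to 63164, 59234, 60417.5 and 62121 CPM in the *Bbs8*+/+ libraries and 25694, 25305.5, 25089.6 and 25488 CPM in the *Bbs8*-/- libraries. Of 23 lens markers 21 were tested and 21 were lower, with *Crygb* the most abundant at 379.9 CPM and *Lenep* at 0 in every library. The lens sums were 3963, 4048, 3910 and 4101 CPM against 719, 652, 706 and 694 CPM. Of 10 erythrocyte markers 9 were matched and 6 tested, and 5 were lower, with *Hbb-bs* the most abundant at 1495 CPM and *Hemgn* and *Epb42* at 0. Their sums were 5719, 5155, 5355 and 5424 CPM against 2218, 2207, 2157 and 1985 CPM, and alpha globin and gamma crystallin genes have near-identical copies among which unique reads may be divided.

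The 12 markers of Müller glia and astrocytes were all tested, with 5 higher and 1 lower and none at 0 in every library, and *Clu* was the most abundant at 5578 CPM. They summed to 11793, 11161, 10535.5 and 11342 CPM in the *Bbs8*+/+ libraries and 14075, 14378, 14825 and 14208 CPM in the *Bbs8*-/- libraries. *Clu* and *Apoe*, the latter at a mean of 4483 CPM over all libraries, made up most of this sum. *Gfap*, *Aqp4*, *Kcnj10* and *Slc1a3* had means of 3.42, 3.68, 1.93 and 11.7 CPM. *Apoe* and these genes were named after their values were seen. The sum thus follows a few abundant genes, and whether their RNA came from glia was not tested. Of 11 markers of the ocular surface epithelium 8 were tested and 6 were higher, with *Pax6*, which the retina also expresses, the most abundant at 15.8 CPM and *Krt12*, a defining marker of the cornea, at 0 in every library. Their sums were 23.7, 25.7, 30.25 and 28.6 CPM against 113, 119, 129.6 and 113 CPM.

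For these 6 lists no *Bbs8*-/- library overlapped the *Bbs8*+/+ libraries (p = 0.0286 each, two-sided exact permutation test, the smallest that 4 against 4 allow, 0.0524 after Benjamini-Hochberg adjustment over 11 lists). Their part in the rise of *Tgfb2*, *Acvr1*, *Vasn* and *Thbs1* was not tested.

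The other 5 lists overlapped between the genotypes. Of 8 platelet markers, a cell type rich in thrombospondin 1 and TGF-beta 1, only 2 were tested, *Pf4* was the most abundant at 4.22 CPM, and *Gp9*, *Gp1ba* and *Tubb1* were at 0 in every library. Platelet markers summed to 9.82, 9.70, 9.40 and 7.80 CPM in the *Bbs8*+/+ libraries and 4.11, 2.87, 2.00 and 9.435 CPM in the *Bbs8*-/- libraries. Library 4 alone made these groups overlap, and the log2 change of −0.9963 was −1.618 without it. Markers of the endothelium, 10 of 12 tested with *Kdr* the most abundant at 17.9 CPM, summed to 47.05, 52.2, 43.7 and 45.3 CPM against 50.1, 57.3, 56.0 and 53.5 CPM.

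Of 14 markers of microglia and macrophages 13 were tested and 1 was lower, with *Csf1r* the most abundant at 290.5 CPM. They summed to 500.3, 383, 388 and 433 CPM in the *Bbs8*+/+ libraries and 335, 349, 385 and 387.5 CPM in the *Bbs8*-/- libraries, a log2 change of −0.23 that was −0.14 without library 1 of *Bbs8*+/+. The 10 markers of fibroblasts and choroid stroma were all tested, 2 were lower, and *Dcn* was the most abundant at 408 CPM. They summed to 1092, 1356, 1318 and 1437 CPM against 1003, 1037, 1153 and 1189.5 CPM. The 9 markers of pericytes and smooth muscle were all tested, with *Rgs5* the most abundant at 70.4 CPM, and summed to 169, 172, 186 and 203 CPM against 148, 168, 186 and 196 CPM.

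No marker of these last 3 lists or of the endothelium was at 0 in every library. No marker of platelets, endothelium or pericytes passed edgeR's quasi-likelihood test, with 0 in each at an unadjusted p under 0.05 and 0 by DESeq2. For the summed markers the two-sided exact permutation p was 0.0857 for platelets, 0.0571 for endothelium, 0.114 for microglia, 0.0857 for fibroblasts and 0.571 for pericytes, and over the 11 lists these adjusted to 0.105, 0.0898, 0.126, 0.105 and 0.571. The part of these cells in the result was not tested. *Dcn* and *Acta2* stand both in these lists and in those of the pathway.

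**Figure D5:**
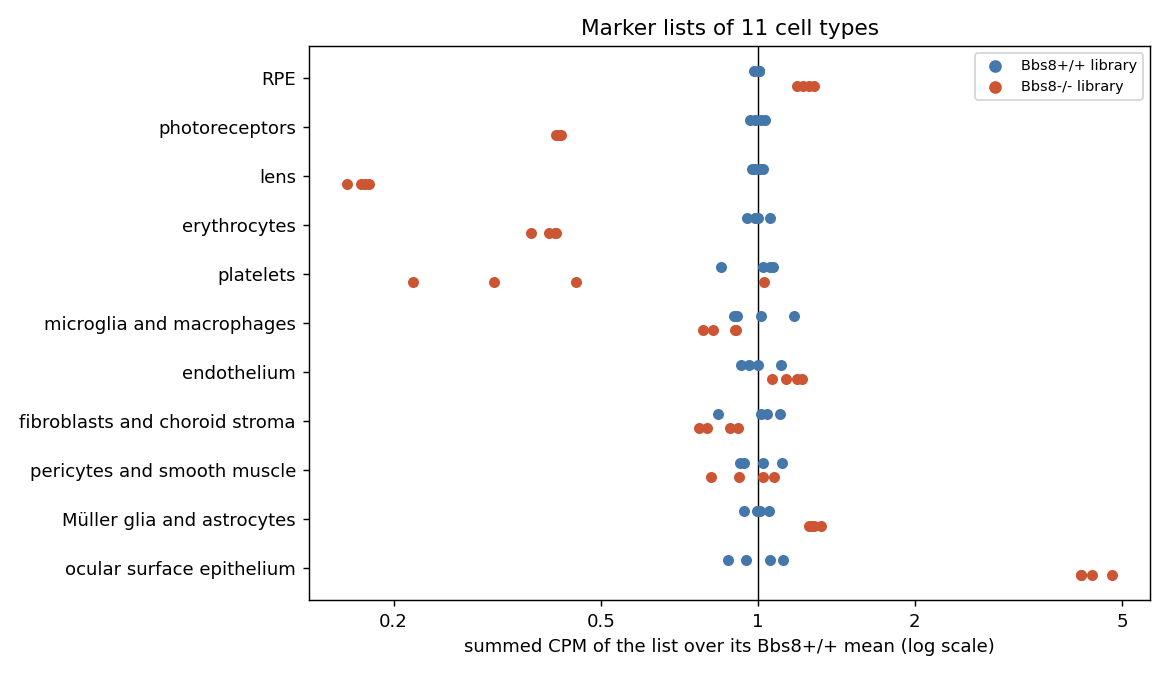
Summed CPM of each of 11 lists of marker genes in each library, divided by the mean of the *Bbs8*+/+ libraries (horizontal axis, log scale), in blue for *Bbs8*+/+ and orange for *Bbs8*-/- libraries. Photoreceptor, lens and erythrocyte markers lie lower in all *Bbs8*-/- libraries, and Müller glia and ocular surface markers lie higher in all of them, as do RPE markers, whose sum turns lower without *Ttr*.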

How the data were processed

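Expression was measured in 8 QuantSeq 3′ libraries of mouse RPE at postnatal day 29, made from 30 ng of RNA each, with single reads of 100 bp. Trimming by the authors used BBDuk. Alignment was done by STAR (mm10, Ensembl gene models), and the authors deposited counts per gene of uniquely mapped reads from htseq-count, without normalization. Neither the strand setting of the counting nor all tool versions are given in the sources used here. Reads on no gene, up to 20.6% of all reads, and reads that did not map uniquely, 32.8% to 34.5%, stayed out of library sizes and tests.

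Libraries were grouped by the genotype in their labels. A gene was tested when 4 or more of the 8 libraries reached 1 CPM, in R 4.3.3 with edgeR 4.0.16 (TMM, quasi-likelihood F test, two-sided, Benjamini-Hochberg adjustment over all tested genes), and DESeq2 1.42.0 served as an alternative. The common biological coefficient of variation was 0.213. For summed markers a two-sided exact permutation test was used. Symbols were found for 30934 of 31053 identifiers, and positions come from the Ensembl annotation of GRCm38, the build of mm10. *Ahsp* was the 1 list symbol without a match. The shared exon bases count all annotated transcripts.

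The genes named were the 10 genes, *Ttc8*, the called genes of each pathway list with a mean of at least 5 CPM, up to 3 in each direction, the most abundant gene of most lists, the genes at 0 of each marker list, and the 3 genes most like *Thbs1*. Others were named after their values were seen. The members and the lists were chosen with earlier results of these data known. Alternatives were DESeq2, library size alone, TMM leaving aside genes of the photoreceptor, lens and erythrocyte lists, other filters, the likelihood ratio test, a replicate block and each library left out in turn. Marker and pathway sums without the most abundant gene of the list, and pathway sums without its called genes, were added after seeing the data.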

Additional observations from a re-analysis of the deposited data

Results flagged for a closer look

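Within each genotype, a library was flagged where its gap to the nearest of the other 3, divided by the whole range, passed Dixon's critical value. At that value chance flags about 1 in 20 groups. Of 74 groups tested, 4 held such a library. *Tgfbr1* was at 11.45 CPM in library 3 of *Bbs8*+/+ and at 5.08 to 5.595 CPM in the other 3. *Thbs1* was at 455.7 CPM in library 1 of *Bbs8*-/- and at 368 to 379.6 CPM in the other 3. *Junb* was at 163.8 CPM in library 1 of *Bbs8*-/- and at 200.6 to 204 CPM in the others. The summed RPE markers were at 39939 CPM in library 2 of *Bbs8*+/+ and at 40906 to 40988 CPM in the others.

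Reads that fell on no gene, which no comparison used, averaged 20.24% of all reads in *Bbs8*-/- libraries, above the 17.0% to 18.45% of the *Bbs8*+/+ libraries. The cause was not tested.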

How the results depend on the processing

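*Tgfb2*, *Vasn* and *Thbs1* passed under all 15 alternatives, and *Acvr1* under 10. The number of the 10 genes called higher was 3 to 5 with a library left out, and 4 otherwise. With scaling by library size alone 15 pathway genes were called higher in place of 10, and 3 lower in place of 5. The number called lower was 3 to 5 with a library left out, and the number called higher 8 to 10. Without library 1 of *Bbs8*-/- the log2 fold change of *Tgfb1* turned to −0.5631, in a range up to 1.1384 without library 4 of *Bbs8*+/+. That of *Tgfbr3* was −0.0883 without library 1 and 0.1224 without library 2 of *Bbs8*+/+, and that of *Smad3* was −0.0567 without library 4 and 0.2654 without library 1 of *Bbs8*-/-. The summed pericyte markers changed by −0.0636 on the log2 scale, by 0.0265 with library size alone and by 0.0075 without library 1 of *Bbs8*-/-. The summed RPE markers changed by 0.3059 on the log2 scale, and by −0.0906 without their most abundant gene, an alternative chosen after seeing the data. The cause was not tested. *Tgfb1* gives no value under edgeR's filterByExpr, which removes it.

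Replicate numbers did not pair the libraries: deviations of same-numbered libraries correlated across genes at −0.0964, −0.0369, −0.0043 and 0.0060, and none correlated best with its own number. With the replicate block the log2 fold change of *Tgfb1* was 0.2077, 4 of the 10 genes were higher and 0 lower, 9 other pathway genes were higher and 4 lower, and 650 genes were higher and 827 lower in all. *Tgfb1*, *Tgfbr1*, *Tgfbr2*, *Acvr1* and *Smad7* had means under 20 CPM in both genotypes, and whether depth or spread between libraries widened their intervals was not tested.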
